A study of Homo sapiens with 8 samples.

Results

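The SR family comprises splicing factors that carry a serine and arginine rich domain next to RNA recognition motifs. Its members were chosen by symbol, and 10 genes (SRSF1, SRSF2, SRSF3, SRSF4, SRSF5, SRSF6, SRSF7, SRSF9, SRSF10 and SRSF11) of 60651 genes in the RNA-seq table were followed. In the table of poly(A) sites (PASs), 191 of 228494 PASs carried the name of a member, and 55 of these were expressed, which means at least 5 reads in more than 1 library.

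SR proteins bind exonic enhancers in pre-mRNA and help the spliceosome choose splice sites. Kinases of the SRPK family phosphorylate them in the cytoplasm, transportin-SR carries them into the nucleus, and CLK kinases release them from nuclear speckles. Many SR genes hold a poison exon whose inclusion introduces an early stop codon, and their proteins limit their own mRNA level through it. In alternative polyadenylation (APA) 1 gene makes mRNAs that end at different PASs, and some SR proteins, among them SRSF3 and SRSF7, are known to take part in that choice.

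All samples came from HEK293TAPA cells, a human embryonic kidney line (HEK293T) that stably carries an APA reporter and was sorted for a medium reporter level. Every group received dPguCas13b, a Cas13b that binds the RNA paired with its gRNA without cutting it. The gNT group received a non-targeting gRNA and the gUSE group a gRNA against the upstream element of the PAS inserted in the reporter, and cells were collected 48 h after transfection. Each gRNA had 2 libraries of 3′ end mRNA sequencing and 2 of RNA-seq, 8 libraries in all, and comparing them asks what the reporter gRNA does to genes it was not designed for. The results describe 1 sorted reporter line in transient transfection. The labels do not say that libraries came from separate cultures, so the p-values measure only the spread between these libraries, which may be technical.

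The 3′ end libraries held 1593763 to 2380992 reads in the part of the PAS table analysed, which ends within chromosome 7 and contains all 10 members, and the RNA-seq libraries held 10259757 to 12977693 counts. IRS4, a gene characteristic of HEK293 cells, had 8456 to 11492 RNA-seq counts per library. All 9 HEK293T marker genes were above 0 in every library, with a summed level of 1549 to 1551 CPM (counts scaled to a library total of 1000000) in gNT and 1479 to 1495 in gUSE. Among 6 markers of other cell types, HBB had 0 counts in every library, PTPRC at most 5, CD3E at most 3 and PECAM1 at most 6, while ALB had 6 to 16 and COL1A1 86 to 120. As these are bulk libraries, a lower level in every cell and fewer cells that express a gene cannot be told apart.

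Annotated transcript ends of 6 members are shown for the sequences of their poly(A) signals. The build behind the listed PAS positions was not named, and they do not fall on the GRCh38 genes. Spacings between the most used PAS of a gene and its other expressed PASs were therefore taken. They were compared with spacings between transcript ends of GENCODE v44 within 2 nt, and pairs without the most used PAS were not compared. This comparison was chosen after the data were seen, and a matched spacing does not place a PAS on the genome. Of 9 members with several expressed PASs, 5 had such a match. SRSF1:PAS5 and SRSF1:PAS2 lay 2574 nt apart, as do the annotated ends of SRSF1-203 and SRSF1-201, and SRSF1:PAS4 lay 133 nt from SRSF1:PAS5, as does the end of SRSF1-205 from that of SRSF1-203. SRSF6:PAS5 and SRSF6:PAS6 lay 638 nt apart (SRSF6-204 and SRSF6-201), SRSF7:PAS3 and SRSF7:PAS1 lay 1294 nt apart (SRSF7-202 and SRSF7-201), and SRSF11:PAS7 and SRSF11:PAS8 lay 1051 nt apart. That spacing of SRSF11 matched the ends of SRSF11-206 and SRSF11-201 and also those of SRSF11-216 and SRSF11-214. SRSF4:PAS2 and SRSF4:PAS1 lay 91 nt apart, and the ends of SRSF4-207 and SRSF4-208 lie 92 nt apart. Given here are 30 bases at the annotated ends in GRCh38, with the poly(A) signal, AATAAA or ATTAAA, in capitals. They are the last 30 bases of the transcript, except for SRSF2-201, where they start at its signal, 36 bases before the end. The canonical ends of SRSF2 and SRSF4, whose most distal PASs are taken up again in the comparison of gRNAs, are added without a match to a PAS, and SRSF4-207 is the end matched to SRSF4:PAS2.
SRSF1-203 (chr17:58003493-58003522, minus strand): ttgaaaaAATAAAcattttttaaaaaacta
SRSF1-205 (chr17:58003360-58003389, minus strand): gttagcaaATTAAAagttcttaaaaggcaa
SRSF1-201 (chr17:58000919-58000948, minus strand): gagctaATTAAAtgtgaaccctgaccagaa
SRSF6-204 (chr20:43463576-43463605, plus strand): aaatctcAATAAAatacttactgagggaaa
SRSF6-201 (chr20:43464214-43464243, plus strand): attacacAATAAAacttagagttcttgcaa
SRSF7-202 (chr2:38744893-38744922, minus strand): gcacatttaAATAAAatgtttctaactaga
SRSF7-201 (chr2:38743599-38743628, minus strand): acAATAAAtctgcagagattgaacaaataa
SRSF11-206 (chr1:70251972-70252001, plus strand): aagactttgatAATAAAacccttaaactta
SRSF11-201 (chr1:70253023-70253052, plus strand): taaaAATAAAagtggtttttgttagaaaaa
SRSF4-201 (chr1:29147743-29147772, minus strand): ttgAATAAAgactatttttgcttgacaaaa
SRSF4-207 (chr1:29147853-29147882, minus strand): tctggtattgtgattatattgttttatatt
SRSF2-201 (chr17:76734121-76734150, minus strand): ATTAAAacattttcttggtgttagcttttc

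For SRSF1, SRSF6, SRSF7 and SRSF11 the first sequence is the end whose spacing matched the most used PAS, and in all 4 genes it holds AATAAA. In SRSF11 the end of SRSF11-216, which the same spacing also matched, holds neither signal in its last 40 bases, so the sequence beside that match depends on the pair chosen. The SRSF1 ends matched to the less used PASs hold ATTAAA, a variant signal, while the less used ends of SRSF6, SRSF7 and SRSF11 hold AATAAA as well. The end of SRSF4-207, matched in spacing to the most used PAS of SRSF4, holds neither signal, and the canonical end downstream of it holds AATAAA. That does not show that SRSF4:PAS2 lacks a signal, as its place on the genome was not established. The end matched to SRSF4:PAS1 is that of SRSF4-208, which is not shown. Its AATAAA starts 9 bases before the end, against 27 bases in SRSF4-201, so the match in SRSF4 is uncertain. In the last 40 bases of the canonical transcripts, AATAAA occurred in 5 of 10 members and ATTAAA without AATAAA in 2 of 10, read on the transcript strand. The shares over 19700 canonical protein-coding transcripts were 62.8% and 14.0%. A missing match says only that these letters are not in that window.

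The family was expressed throughout, and its members differed several-fold in level. RNA-seq levels between genes are given as RPKM, CPM divided by the length in kb of all annotated exons of the gene joined. SRSF2, a nuclear speckle protein that binds exonic enhancers, had the highest level with 176 and 164 RPKM in gNT and 179 and 177 in gUSE. SRSF1, the prototype of the family and a known oncoprotein, followed with 148 and 148 in gNT and 150 and 156 in gUSE. SRSF11, a member that associates with spliceosomal proteins, had 81.1 and 84.1 in gNT and 82.4 and 83.1 in gUSE. After a wide step from SRSF1 to SRSF11, the levels in gNT went down in small steps from SRSF7 (72.0 ± 0.247 RPKM, SD, n = 2) through SRSF6 (68.2 ± 0.357), SRSF3 (63.1 ± 0.0949), SRSF5 (53.0 ± 1.05) and SRSF9 (40.7 ± 0.432) to SRSF4 (35.1 ± 1.37) and SRSF10 (35.0 ± 0.982). SRSF4 and SRSF10 were the only neighbours in this order whose gap was within the sum of their SDs.

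**Figure D1:**
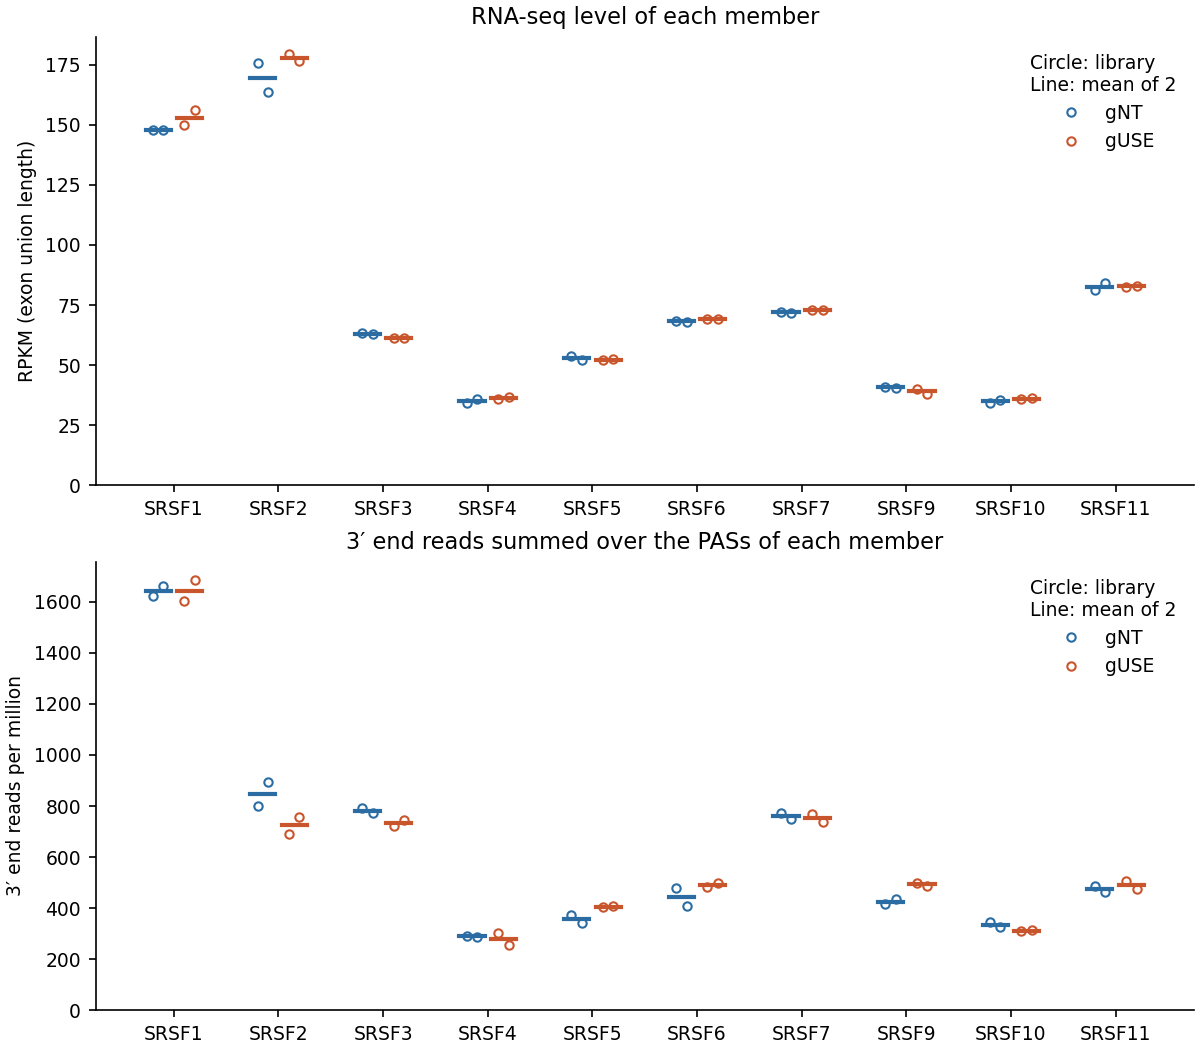
RNA-seq level in RPKM (upper plot) and 3′ end RPM (lower plot, reads on PASs that name 1 gene scaled to 1000000) of each member, with a circle for each library and a line for the mean of the 2 libraries of gNT (blue) or gUSE (orange). SRSF2 and SRSF1 stand highest in RNA-seq, and SRSF1 stands alone in the 3′ end reads at 1602 to 1686 RPM.

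The order rested on the length used. Per kb of the canonical transcript, a choice added after the data were seen, SRSF2 stayed first with 267 ± 13.7 RPKM in gNT and SRSF10 last with 54.2 ± 1.52. SRSF5 moved from rank 7 to rank 2 with 190 ± 3.76, and SRSF6 from rank 5 to rank 9 with 76.7 ± 0.401. SRSF5 has 1496 bases in its canonical transcript and 5357 in its joined exons, SRSF6 has 4353 and 4894.

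In the 3′ end libraries each mRNA gives a read at its end, so no length is needed, and levels are given as RPM, reads scaled to 1000000 reads on PASs that name 1 gene. SRSF1 led with 1624 and 1661 in gNT and 1602 and 1686 in gUSE. Of its 35 listed PASs, 34 also carry the name of AC015813.2, a gene annotated on the same strand, so its reads may include those of that gene and stand outside the total used for scaling. AC015813.2 had 6783 to 7984 counts of its own in RNA-seq, and how reads were divided between both genes there is not stated. SRSF2 (847 ± 66.7 RPM in gNT, SD, n = 2), SRSF3 (782 ± 15.4), the smallest SR protein, and SRSF7 (761 ± 16.5), which has a zinc knuckle, formed the next step, and neighbours among them did not differ beyond their SDs. SRSF11 (474 ± 16.7), SRSF6 (444 ± 50.3) and SRSF9 (426 ± 15.7) followed, again with neighbours within their SDs. SRSF5 (359 ± 21.9) and SRSF10 (334 ± 14.1) were also within their SDs, and SRSF4 had the lowest level (289 ± 4.36). SRSF10 is a member that turns into a splicing repressor when dephosphorylated, and SRSF4, SRSF5 and SRSF6 share a pair of RNA recognition motifs.

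All members together took 4300 and 4307 CPM in gNT and 4344 and 4388 CPM in gUSE in RNA-seq, where both gUSE libraries were higher. In the 3′ end libraries they took 6380 and 6337 RPM in gNT and 6285 and 6360 in gUSE, where the groups overlapped. Pseudogenes hardly took part in the counts, since 11 pseudogenes of members were listed in RNA-seq with 0 to 5 counts per library.

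Most members used several PASs. SRSF9, which resembles SRSF1 but has a short serine and arginine rich domain, had 1 expressed PAS, and the other 9 had between 3 (SRSF2 and SRSF7) and 10 (SRSF10). Without SRSF1, whose PASs name a second gene, the median was 5 expressed PASs per member. It was 2 over 603 other genes with at least 1978 reads in the 4 libraries, the number of the lowest member. The most used PAS held a median of 55.9% of the reads in the 8 members other than SRSF1 with several expressed PASs and 88.2% in those other genes with several. Of the listed PASs of members, 136 were not expressed, and they held between 0.0914% (SRSF2) and 1.60% (SRSF5) of the reads of their genes.

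**Figure D2:**
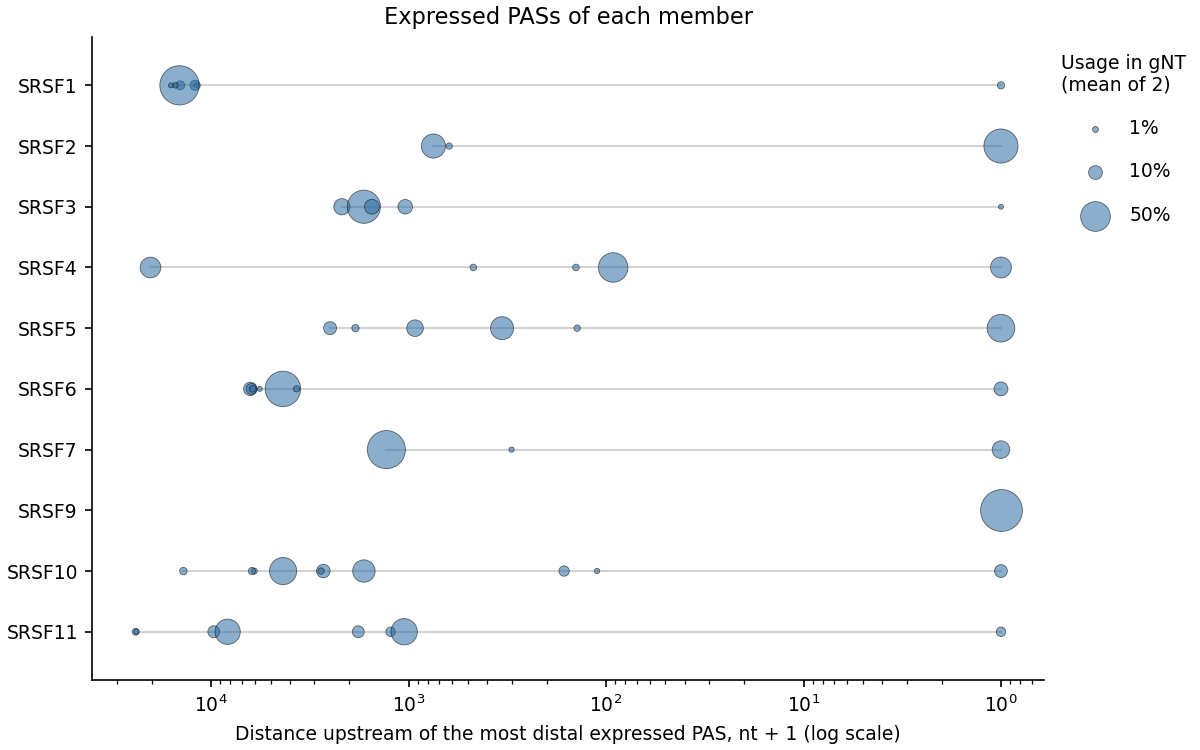
Expressed PASs of each member along the distance upstream of the most distal expressed PAS (nt + 1, log scale, with the most distal PAS at the right), where the area of a circle grows with the mean usage in the 2 gNT libraries. The largest circle is at the most distal PAS in SRSF2, SRSF5 and SRSF9 and upstream of it in the other 7 members. By the spacing matches, the most distal PAS of SRSF1 and SRSF6 would lie beyond the annotated gene.

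Usage is the share of a PAS in the summed reads of the expressed PASs of a gene, and PASs are numbered by increasing position. The most used PAS was the same in all 4 libraries for 10 of 10 members. It was the most distal expressed PAS in 3 members and lay upstream of the most distal in 7. In SRSF1 and SRSF6 the most distal PAS lies 11881 and 3688 nt downstream of the PAS matched in spacing to the canonical end. By these matches it would lie beyond the annotated gene in both. The most used PAS of both genes also lay upstream of the PAS matched to the canonical end. In 4 members (SRSF4, SRSF5, SRSF10 and SRSF11) the most used PAS held under 50% of the reads in gNT. Of the 55 expressed PASs, 22 had a usage of at least 10% in gNT and 24 of less than 5%.

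In SRSF1 (chr17:58000919-58007346 in GRCh38, minus strand) the reads gathered at 1 place. SRSF1:PAS5, listed at position 56080854 of chromosome 17, had a usage of 88.2% and 87.5% in gNT and 87.9% and 88.1% in gUSE. SRSF1:PAS2, the PAS matched in spacing to the canonical end, had 0.496% and 0.257% in gNT and 0.256% and 0.554% in gUSE. The canonical transcript has a 3′ UTR of 4487 nt, and the matched end of SRSF1:PAS5 lies 2574 nt before its end.

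SRSF7 (chr2:38743599-38751494, minus strand) had a similar arrangement. SRSF7:PAS3 had a usage of 81.7% and 83.4% in gNT and 84.1% and 83.6% in gUSE. SRSF7:PAS1, which lies 1294 nt further downstream, had 17.8% and 15.9% in gNT and 15.1% and 15.8% in gUSE. The annotation lists 6 transcripts of SRSF7 as targets of nonsense-mediated decay, the highest number among the members, where the others have 1 to 5.

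In SRSF6 (chr20:43457893-43466046, plus strand) 7 PASs spread over 6333 nt. SRSF6:PAS5 was used most, with 70.2% and 73.0% in gNT and 76.4% and 78.9% in gUSE, and both gUSE libraries lay above both gNT libraries. SRSF6:PAS6, matched in spacing to the canonical end, had 2 to 11 reads per library. SRSF6:PAS7, another 3688 nt downstream, had 11.0% and 9.25% in gNT and 8.82% and 8.53% in gUSE.

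SRSF2 (chr17:76734115-76737333, minus strand) divided its reads between a pair of PASs 747 nt apart. The most distal, SRSF2:PAS1, had a usage of 65.5% and 66.6% in gNT and 61.4% and 62.1% in gUSE. SRSF2:PAS3 had 33.4% and 31.7% in gNT and 37.2% and 37.0% in gUSE. In both PASs the groups did not overlap. MFSD11 overlaps SRSF2 on the opposite strand in the annotation, so unstranded RNA-seq counts of either gene would be uncertain.

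SRSF3 (chr6:36594353-36605600, plus strand) had 4 of its 5 PASs at 10% or more. SRSF3:PAS2 had a usage of 63.2% and 61.7% in gNT and 60.5% and 62.6% in gUSE, with overlapping groups. SRSF3:PAS4 had 11.9% and 10.6% in gNT and 15.5% and 13.2% in gUSE, where both gUSE libraries were higher. The most distal, SRSF3:PAS5, had 4 to 7 reads per library.

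SRSF4 (chr1:29147743-29181900, minus strand) had most of its usage in neighbouring PASs. SRSF4:PAS2 had 49.3% and 49.2% in gNT and 57.5% and 56.3% in gUSE, and SRSF4:PAS1, 91 nt downstream and the most distal, had 22.3% and 26.1% in gNT and 13.9% and 17.0% in gUSE. The groups did not overlap in either PAS, and the differences were opposite in sign. SRSF4:PAS5 lies 20270 nt upstream of the most distal PAS, further than the last exon of 1484 nt, and had 24.9% and 22.1% in gNT and 25.0% and 21.7% in gUSE.

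SRSF5 (chr14:69726900-69772005, plus strand) used its most distal PAS most. SRSF5:PAS6 had 45.8% and 40.5% in gNT and 39.3% and 45.4% in gUSE, so libraries of 1 group differed as much as libraries of different groups. SRSF5:PAS4, 335 nt upstream, had 26.9% and 32.4% in gNT and 31.6% and 25.2% in gUSE. SRSF5:PAS3, 926 nt upstream, had 15.4% and 14.3% in gNT and 18.2% and 16.5% in gUSE, where both gUSE libraries were higher. Its usage change of 2.48 percentage points had an unadjusted p of 0.232 in edgeR.

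SRSF10 and SRSF11 had the lowest usage of a most used PAS, with means of 41.7% and 39.0% in gNT. In SRSF10 (chr1:23964347-23980927, minus strand) SRSF10:PAS7 had 40.9% and 42.4% in gNT and 39.0% and 39.1% in gUSE. SRSF10:PAS7 lies 4317 nt and SRSF10:PAS4 1682 nt upstream of the most distal PAS, and the latter had 29.6% and 26.3% in gNT and 29.8% and 33.8% in gUSE. Both gNT libraries were higher in SRSF10:PAS7, and the groups of SRSF10:PAS4 did not overlap either. In SRSF11 (chr1:70205682-70253052, plus strand) the most used were SRSF11:PAS7, 1051 nt upstream of the most distal, and SRSF11:PAS4. The former had 39.3% and 38.7% in gNT and 39.4% and 38.2% in gUSE, the latter 35.3% and 36.3% in gNT and 37.1% and 36.1% in gUSE. SRSF11:PAS4 lies 8241 nt upstream of the most distal PAS, and the last exon of the canonical transcript has 2445 nt.

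The usage of no member PAS passed the thresholds of an adjusted p under 0.05 and a usage change over 10 percentage points when gUSE was compared with gNT. With edgeR (glmQLFit and diffSpliceDGE, Benjamini-Hochberg adjustment over 14965 PASs) 0 of 47 PASs of 8 members were called, and the share called over all PASs was 0%. At an unadjusted p under 0.05 edgeR gave 3 of 47 PASs, against 4.40% of all PASs, and the DEXSeq-style model in DESeq2 gave 0. SRSF1, tested with the PASs that name several genes added, had 0 of 7 PASs at an unadjusted p under 0.05. The median size of the usage change was 0.771 percentage points over the 47 PASs, where single libraries differed by a median of 1.09 within gNT and 0.817 within gUSE. It was 2.61 over all PASs tested, where single libraries differed by a median of 3.21 within gNT and 3.25 within gUSE, and it was 0.501 over 1671 PASs of other genes with at least 1978 reads. The groups did not overlap in 19 of 47 PASs, against 37.2% of all PASs.

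**Figure D3:**
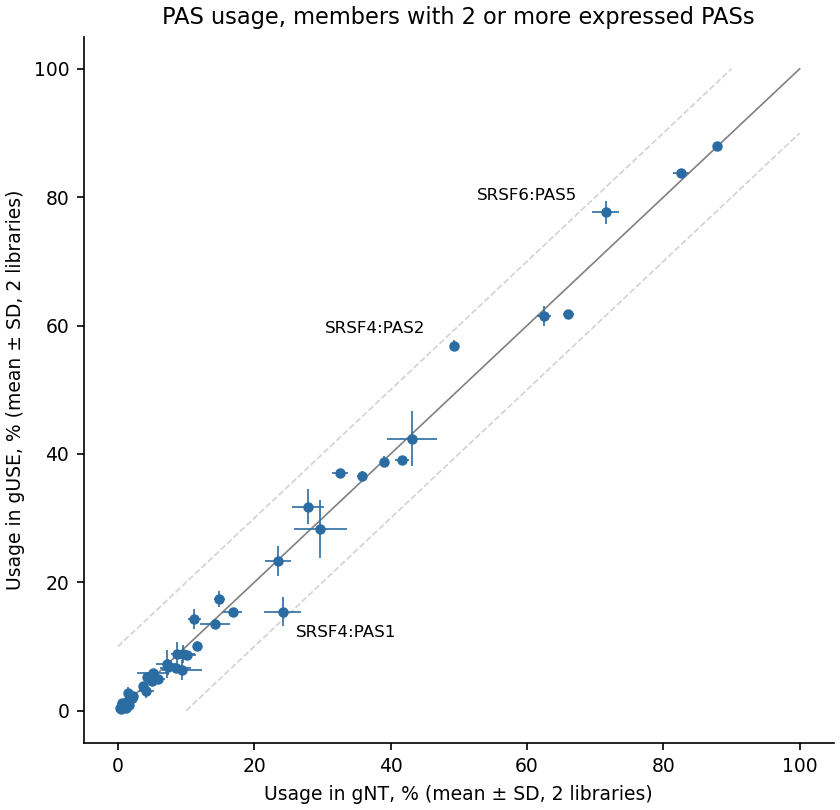
Mean usage in gUSE against mean usage in gNT, in percent, of the PASs of members with 2 or more expressed PASs, with SDs of 2 libraries as bars, a solid line of equal usage and dashed lines 10 percentage points away. No point lies outside the dashed lines, and SRSF4:PAS1 lies closest to them.

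SRSF4 and SRSF6 held the largest changes of usage. SRSF4:PAS1 went from 24.2% ± 2.73 (SD, n = 2) in gNT to 15.5% ± 2.21 in gUSE, a change of -8.75 percentage points with an unadjusted p of 0.000508 and an adjusted p of 0.349 in edgeR. Leaving out 1 library at a time moved it between -6.82 and -10.7 percentage points, past 10 without replicate 1 of gNT or replicate 2 of gUSE, and the adjusted p stayed at 0.304 or more. Its Wilson 95% intervals, which cover counting error only, were 19.2% to 25.7% and 22.1% to 30.7% in gNT and 11.3% to 16.9% and 13.6% to 21.1% in gUSE. SRSF4:PAS2 changed by 7.61 percentage points and SRSF6:PAS5 by 6.10, with unadjusted p-values of 0.0678 and 0.242 and an adjusted p of 1 in edgeR. The next smallest p-values after SRSF4:PAS1 were those of SRSF6:PAS1 (-3.04 percentage points, unadjusted p = 0.00641, adjusted p = 0.779 in edgeR) and SRSF3:PAS4 (3.08 percentage points, unadjusted p = 0.0158, adjusted p = 0.929). The change of SRSF3:PAS4 ranged from 1.94 percentage points without replicate 1 of gUSE to 4.22 without replicate 2 of gUSE. SRSF6:PAS1 had 11.4% and 7.30% in gNT and 7.44% and 5.20% in gUSE, so its groups overlapped, and its change ranged from -0.975 percentage points without replicate 1 of gNT to -5.11 without replicate 2 of gNT.

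**Figure D4:**
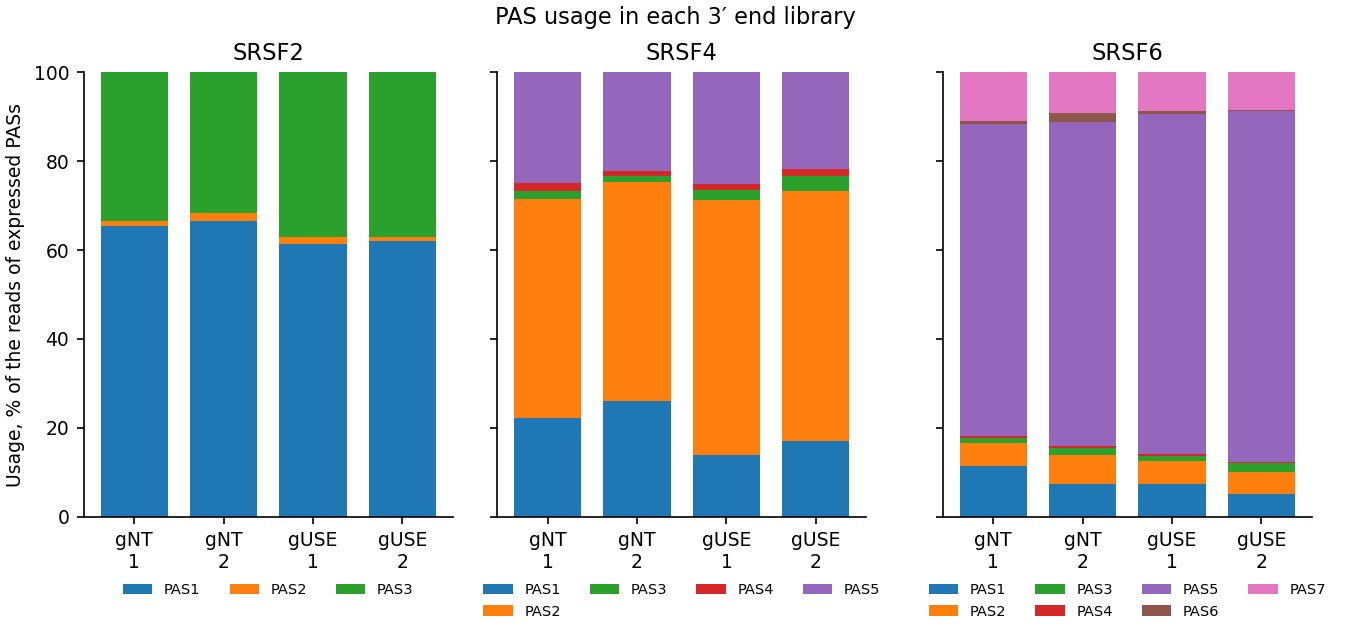
Usage of each expressed PAS in percent as stacked bars, 1 bar for each of the 2 gNT and 2 gUSE libraries of 3′ end sequencing, for SRSF2, SRSF4 and SRSF6. The share of SRSF2:PAS1 and SRSF4:PAS1 is smaller in both gUSE bars than in both gNT bars, and that of SRSF6:PAS5 is larger.

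When reads were tested at each PAS by itself, the most distal PASs of SRSF2 and SRSF4 were lower in gUSE. Of 48 PASs of 9 members, 2 were called at an adjusted p under 0.05 in edgeR's quasi-likelihood test, against 0.58% of 19317 PASs, and 7 had an unadjusted p under 0.05, against 9.29%. SRSF2:PAS1 had 524 and 596 RPM in gNT and 424 and 470 in gUSE, and both gUSE libraries were below both gNT libraries. Its log2 fold change was -0.33 (SE 0.07, adjusted p = 0.00476, edgeR). SRSF2:PAS3 had 267 and 283 RPM in gNT and 257 and 280 in gUSE, with overlapping groups and a log2 fold change of -0.04. SRSF4:PAS1 had 64.6 and 73.5 RPM in gNT and 41.2 and 42.8 in gUSE, again without overlap. Its log2 fold change was -0.71 (SE 0.18, adjusted p = 0.0262, edgeR). SRSF4:PAS2 had 143 and 138 RPM in gNT and 171 and 142 in gUSE, and its log2 fold change of 0.15 was not called (adjusted p = 0.745, edgeR).

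Both calls were lost under other settings. DESeq2 called 0 of the 48 PASs, and 17 PASs in all. DESeq2 gave 4 of the 48 an unadjusted p under 0.05, with no DESeq2 share over all PASs at hand to compare. It gave SRSF2:PAS1 a log2 fold change of -0.33 with an adjusted p of 0.144, and SRSF4:PAS1 one of -0.72 with an unadjusted p of 0.00917 and no adjusted p. In edgeR, SRSF2:PAS1 kept its call without replicate 1 of gNT (adjusted p = 0.00596). The adjusted p was 0.420 without replicate 2 of gNT, 0.421 without replicate 1 of gUSE and 0.798 without replicate 2 of gUSE. SRSF4:PAS1 lost its call whichever of the 4 libraries was left out, with an adjusted p of 0.0664 without replicate 1 of gNT, 0.313 without replicate 2 of gNT, 0.298 without replicate 1 of gUSE and 0.798 without replicate 2 of gUSE in edgeR. The log2 fold changes themselves ranged from -0.24 to -0.42 for SRSF2:PAS1 and from -0.62 to -0.80 for SRSF4:PAS1 in these fits, and without replicate 2 of gUSE 0 of all PASs were called. SRSF6:PAS5, with the next smallest p, had 333 and 290 RPM in gNT and 366 and 390 in gUSE, a log2 fold change of 0.26 (SE 0.08, adjusted p = 0.116, edgeR).

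Summed over the PASs of a gene, no member passed the threshold in the 3′ end libraries in the main fit, which has no replicate block. With same-numbered libraries fitted as blocks, SRSF2 and SRSF9 passed it in edgeR, though the numbers do not establish pairs. SRSF2 also passed it without a filter. With edgeR's quasi-likelihood test over 8559 genes, 0 of 9 members were called at an adjusted p under 0.05, against 0.479% of all genes. At an unadjusted p under 0.05 there were 3 of 9 in edgeR, against 10.5% of all genes. DESeq2 called 0 and gave 2 of 9 at that level, with no DESeq2 share over all genes at hand to compare. The 3 in edgeR were SRSF2, SRSF9 and SRSF5. SRSF2 had 800 and 895 RPM in gNT and 691 and 757 in gUSE, both gUSE libraries lower, with a log2 fold change of -0.22 (SE 0.06, unadjusted p = 0.00103, adjusted p = 0.117, edgeR). SRSF2 was called in edgeR when replicate 1 of gNT was left out (log2 fold change -0.31, adjusted p = 0.0170). It was -0.14 (adjusted p = 0.612) without replicate 2 of gNT, -0.15 (adjusted p = 0.728) without replicate 1 of gUSE and -0.29 (adjusted p = 0.195) without replicate 2 of gUSE. SRSF9 had 414 and 437 in gNT and 500 and 486 in gUSE, both gUSE libraries higher, with a log2 fold change of 0.22 (SE 0.07, unadjusted p = 0.00312, adjusted p = 0.176). SRSF5 had 374 and 343 in gNT and 403 and 409 in gUSE, also higher in both, with 0.17 (SE 0.07, unadjusted p = 0.0251, adjusted p = 0.379).

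The other members had log2 fold changes from -0.11 (SRSF10) to 0.13 (SRSF6) in the 3′ end sums. The value of SRSF6 was 0.26 without replicate 1 of gNT and 0.03 without replicate 2 of gNT. SRSF3 had -0.09, SRSF4 -0.05, SRSF7 -0.02 and SRSF11 0.05, the last with 0.0004 without replicate 1 of gUSE and 0.09 without replicate 2 of gUSE. The median over the 9 members was -0.02, and over all genes tested 0.01. The groups did not overlap in 6 of 9 members, against 41.1% of all genes. For SRSF1, with the PASs that name several genes added, the SE was 0.05 and the adjusted p 0.996.

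In RNA-seq all 10 members stayed within 0.07 of 0 on the log2 scale. With edgeR's quasi-likelihood test over 16594 genes, 0 of 10 were called at an adjusted p under 0.05, against 0.0783% of all genes. At an unadjusted p under 0.05 there was 1 of 10 in edgeR, against 7.97% of all genes, and DESeq2 gave 0 by either measure. SRSF3 had 63.2 and 63.1 RPKM in gNT and 61.3 and 61.1 in gUSE, both gUSE libraries lower, and its log2 fold change was -0.05 (SE 0.03, unadjusted p = 0.0474, adjusted p = 0.62, edgeR). SRSF2 had a log2 fold change of 0.06 (SE 0.03, unadjusted p = 0.0589, adjusted p = 0.647). SRSF9 had 41.0 and 40.4 RPKM in gNT and 40.1 and 38.1 in gUSE, with -0.07 (SE 0.04, unadjusted p = 0.106, adjusted p = 0.721).

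The remaining log2 fold changes in RNA-seq were 0.04 for SRSF1 and SRSF4, 0.03 for SRSF10, 0.01 for SRSF6 and SRSF7, -0.01 for SRSF11 and -0.03 for SRSF5. Leaving out 1 library gave 0.01 (without replicate 8 of gUSE) to 0.06 (without replicate 7 of gUSE) for SRSF1, and for SRSF6 and SRSF7 it gave 0.006 and 0.003 without replicate 6 of gNT. For SRSF5 it gave -0.01 (without replicate 5 of gNT) to -0.05 (without replicate 6 of gNT). Scaling by library totals gave 0.021 for SRSF6 and 0.016 for SRSF7. The median over members was 0.01 with a median size of 0.03, and the median size over all genes tested was 0.08. The groups did not overlap in 7 of 10 members, against 37.9% of all genes.

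**Figure D5:**
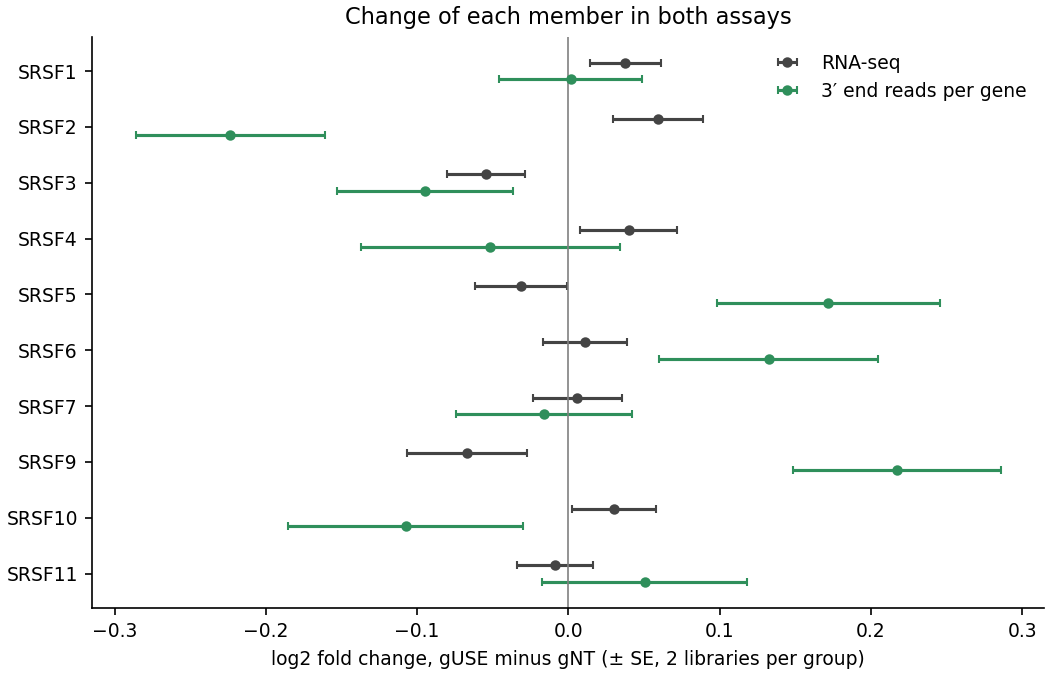
Log2 fold change of gUSE over gNT of each member in RNA-seq (grey) and in 3′ end reads summed per gene (green), with SEs from 2 libraries per group as bars. RNA-seq values lie between -0.07 and 0.06, and 3′ end values between -0.22 (SRSF2) and 0.22 (SRSF9).

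Of 9 members tested in both assays, the groups lay apart in both assays in the same order in 2 and in opposite order in 3. SRSF3 was lower in all gUSE libraries of both assays and SRSF6 higher, the latter by 0.01 on the log2 scale in RNA-seq. Over 8145 genes tested in both, 9.34% lay apart in the same order and 7.58% in opposite order. SRSF2 had -0.22 in the 3′ end sums and 0.06 in RNA-seq on the log2 scale, and SRSF9 had 0.22 and -0.07. The RNA-seq value of SRSF2 was 0.008 without replicate 6 of gNT and 0.11 without replicate 5 of gNT, and that of SRSF9 was -0.03 without replicate 8 of gUSE and -0.11 without replicate 7 of gUSE. In both SRSF2 and SRSF9, gNT and gUSE libraries did not overlap in either assay, and they lay in opposite order. The same held for SRSF10, with -0.11 in the 3′ end sums and 0.03 in RNA-seq, where leaving out 1 gNT library (replicate 5) brought the RNA-seq value to the other side of 0. Its 3′ end value was -0.06 without replicate 1 of gNT. The difference between assays was not tested. GATC and DYNLL1 overlap SRSF9 on the opposite strand in the annotation, and MFSD11 overlaps SRSF2, and whether RNA-seq counting used strand is not stated in the sources used here.

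The gUSE target, 22 nt long, had no close match in the stretches searched. On the transcript strand from 1000 nt before to 1000 nt after each gene in GRCh38, the best match had 6 mismatches in SRSF11 and 7 to 9 in the other members. By the spacing matches, SRSF1:PAS1 and SRSF6:PAS7 would lie outside these stretches, so matches near them were not searched for. The best match to the gNT sequence had 6 to 9 mismatches.

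Among 34 SR-related proteins, which carry serine and arginine repeats and work with the family, 0 were called in RNA-seq by edgeR, against 0.0783% of all genes, and 0 by DESeq2. The list also holds SRSF8 and SRSF12, which bear the SRSF name but were not among the members. SRSF8 had a log2 fold change of 0.13 in RNA-seq (SE 0.06, unadjusted p = 0.0321, adjusted p = 0.584, edgeR). In the 3′ end sums it had -0.32 (SE 0.13, unadjusted p = 0.0223, adjusted p = 0.365, edgeR). In edgeR, 5 of 34 had an unadjusted p under 0.05, against 7.97% of all genes, of which 2 were higher and 3 lower in gUSE, while DESeq2 gave 0. The median log2 fold change was -0.02, against 0.00 over all genes. The smallest p-values belonged to RBM23, a splicing regulator related to RBM39 (log2 fold change -0.11, SE 0.03, adjusted p = 0.423, edgeR), SON, a nuclear speckle scaffold (-0.06, SE 0.02, adjusted p = 0.477), and SREK1, a regulatory splicing protein (-0.08, SE 0.03, adjusted p = 0.546).

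In the 3′ end sums 1 of 32 SR-related genes tested was called by edgeR, against 0.479% of all genes, and 0 by DESeq2. At an unadjusted p under 0.05 there were 8 of 32 in edgeR, 2 higher and 6 lower, against 10.5% of all genes. DESeq2 gave 2 of 32 at that level, with no DESeq2 share over all genes at hand to compare. The called gene was SRRM2, a scaffold of nuclear speckles, with 1381 and 913 unscaled reads in gNT and 1009 and 834 in gUSE. Its log2 fold change was -0.29 (SE 0.06, adjusted p = 0.0192, edgeR). Its call was lost whichever of the 4 libraries was left out. The median over the list was -0.08, against 0.01 over all genes. In RNA-seq SRRM2 had a log2 fold change of -0.01 (SE 0.02, adjusted p = 0.945, edgeR).

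Among 19 kinases, phosphatases and transport factors of SR proteins, 0 were called in RNA-seq by edgeR, against 0.0783% of all genes, and 0 by DESeq2. At an unadjusted p under 0.05 edgeR gave 1, which was lower, against 7.97% of all genes, and DESeq2 gave 0. The median log2 fold change was 0.00, as over all genes. The smallest p-values were those of DYRK1A, a kinase of splicing factors (log2 fold change -0.13, SE 0.04, adjusted p = 0.423, edgeR), CLK4, a kinase of SR proteins in the nucleus (0.14, SE 0.07, adjusted p = 0.646), and NXT1, a partner of the mRNA export receptor NXF1 (0.19, SE 0.10, adjusted p = 0.68). In the 3′ end sums 0 of 14 tested were called by edgeR, against 0.479% of all genes, and 0 by DESeq2. At an unadjusted p under 0.05 edgeR gave 2, both higher, against 10.5% of all genes, and DESeq2 gave 0.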

How the data were processed

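Per the paper's methods and the labels, the authors trimmed reads, aligned them to hg38 with STAR (2.7.9 in the submitters' processing notes) and deposited raw read counts per PAS of PolyA_DB3 and per gene, from featureCounts. The PAS table analysed ends in chromosome 7. PASs that name no gene held 6.57% to 7.26% of reads and were left out, and PASs that name several genes held 3.95% to 4.02% and entered an alternative of the usage test and, added after seeing the data, of the tests of gene sums and single PASs. The values of SRSF1 come from these fits. Usage is the reads of a PAS over those of all expressed PASs of its gene.

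Tests used edgeR 4.0.16 in R 4.3.3 (quasi-likelihood, TMM factors), fitted on the whole table and adjusted over all features with at least 10 counts in 2 libraries (PASs: 5 reads), with SEs derived from the F statistic. DESeq2 1.42.0 was the alternative, also for the model of DEXSeq, which was not installed. The usage test sets a PAS against the mean of its gene, so it responds little to a PAS that holds most of the reads. Tests were checked on simulated data with changes larger than those called among members, so the check does not cover changes as small as these. For usage it covered only PASs that do not hold most of the reads of their gene. Members and lists were chosen with earlier results of these data known. Full statistics were given for members past a threshold, otherwise for the 3 smallest p-values and the 3 largest usage changes. Sequences came from GRCh38 with GENCODE v44. The number of reads limits the precision. Python 3.11.15, pandas 2.3.3, numpy 2.4.6, scipy 1.17.1 and matplotlib 3.10.9 were used.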

Additional observations from a re-analysis of the deposited data

How the results depend on the processing

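The absence of called members in RNA-seq and PAS usage held under every alternative run. The most used PAS of each member was the same in all 4 libraries. Another tool, scaling or replicate block could not alter it, as usage is a share of raw reads. Counts of calls depended on tool, filter and library, and the cause was not tested. DESeq2 called 1 gene in RNA-seq, 17 genes in the 3′ end sums and 17 single PASs (edgeR 13, 41 and 112), with 0 members among single PASs and 0 SR-related genes. Without a filter edgeR called 58 genes in RNA-seq and 66 in the 3′ end sums, with 1 member, SRSF2 (adjusted p = 0.0284). It called 62 with expressed PASs only, and 1 PAS by usage at 10 reads or more. Leaving out 1 library gave 14 to 62 genes in RNA-seq, 0 to 55 in the 3′ end sums with 0 to 1 members and 0 SR-related genes, and 0 to 72 single PASs with 0 to 1 members. Replicate numbers do not establish pairs, as same-numbered 3′ end libraries had a correlation of deviations of 0.0370 over 8559 genes. With the replicate block edgeR called 178 genes in the 3′ end sums with 2 members (SRSF2 and SRSF9) and 2 SR-related genes, and 201 single PASs with 4 of members (SRSF2:PAS1, SRSF4:PAS1, SRSF6:PAS5 with an adjusted p of 0.0244, and SRSF9:PAS1). RNA-seq libraries share no numbers. Signs turned only for values near 0 and not called. SRSF1 had 3′ end log2 fold changes of -0.0096 with expressed PASs only, -0.000846 with library totals, -0.000277 without a filter and -0.000354 with the replicate block, and SRSF11 had 0.000962 in RNA-seq with library totals. Leaving out 1 library gave RNA-seq log2 fold changes of -0.00156 to 0.0808 for SRSF4, -0.000719 to 0.0595 for SRSF10 and -0.0369 to 0.0176 for SRSF11. In the 3′ end sums it gave -0.0386 to 0.0401 for SRSF1, -0.185 to 0.0542 for SRSF4 and -0.0471 to 0.0116 for SRSF7. In percentage points of usage it gave -0.796 to 0.414 for SRSF11:PAS7, -0.209 to 0.507 for SRSF1:PAS5, -2.02 to 0.123 for SRSF3:PAS2 and -3.84 to 2.26 for SRSF5:PAS6. SRSF11:PAS7 had 0.0233 at 10 reads or more, and SRSF1:PAS5 -0.227 with all listed PASs counted.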
